A study of Mus musculus with 2 samples.

Results

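This account describes 798 stromal cells of mouse bone marrow, chosen from 8786 cells in all by the balance between a pair of fat-lineage genes and a pair of bone-matrix genes. Every cell came from 1 droplet library, LepR_tdT, of tdTomato+ marrow cells. In the mice used (genotype LepR-Cre;LSL-tdTomato, strain C57Bl/6JCrl, 3 to 4 months old) Cre made from the leptin receptor locus removes a stop cassette, so a cell that makes Lepr, or had a forebear that did, turns red. A second library, EC, of marrow endothelial cells from mice of the same genotype, strain and age, serves here as background. Each population is 1 library, so no value has a replicate and nothing below carries a test. The number of mice behind each library was not given. The labels' protocol describes marrow digested with collagenase and dispase, with tamoxifen by gavage, an injected VE-Cadherin antibody and several stains assigned to sample numbers that overlap. Which of these steps applied to which of the 2 libraries cannot be told from the labels.

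Stromal cells marked by the leptin receptor lie around marrow sinusoids and supply blood stem cells with the chemokine CXCL12 and with stem cell factor, the product of Kitl. They are also known as a source of marrow fat cells and of bone-forming cells in adult mice. Adiponectin (Adipoq), a hormone of fat cells, and lipoprotein lipase (Lpl), which frees fatty acids from circulating fat, are widely read as signs of the fat fate. Bone sialoprotein (Ibsp) and osteopontin (Spp1), acidic proteins of mineralised matrix, are read as signs of the bone fate.

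Cells entered the ranking in steps. Of 4250 cells of the LepR_tdT library, 3672 held at least 1000 UMIs (unique molecular identifiers, each a counted molecule), and in 3426 of these at least 1% of the UMIs were Cxcl12. Cells in which the bone matrix genes Bglap, Bglap2, Col1a1, Car3 and Mmp13 reached 0.5% of UMIs were set aside, leaving 3373. Cells with 5 or more UMIs of Kit, Cxcl5, Hsd11b1 and Mrap together were set aside as well, leaving 3195. Each of these was ranked by (Ibsp + Spp1 + 1)/(Adipoq + Lpl + 1) in raw UMIs, a ratio that ran from 0.0256 to 131 with a median of 2.79. The 798 cells of the lowest 25%, called low-ratio cells here, had a median ratio of 1.15. The 1599 cells of the middle 50%, the middle-ratio cells, were the reference, and the other 798 cells, the high-ratio cells, were set beside them.

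The groups were alike in depth. Median UMIs per cell were 4766 in low-ratio cells, 4556 in middle-ratio cells and 4562 in high-ratio cells, and the summed UMIs behind each level were 3841696, 7497528 and 3735996. The median mitochondrial share was 2.19% in low-ratio cells, 2.15% in middle-ratio cells and 2.27% in high-ratio cells. Summed immediate early genes, which respond to digestion of tissue, stood at 12213, 12068 and 13442 UMIs per 1000000 UMIs of the group (CPM) in the same order, and summed heat shock genes at 4291, 4102 and 4189 CPM. The 2 libraries shared 42 cell barcodes, of which 6 belonged to low-ratio cells, 8 to middle-ratio cells and 5 to high-ratio cells. Without those cells, 46 genes lay past 1.5-fold higher and 17 past 1.5-fold lower in low-ratio cells, against 48 and 18 with them.

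The genes that made the ranking differed by construction, and their values describe the cells without supporting anything. Adipoq (ENSMUSG00000022878, GRCm38 chromosome 16, 23146536 to 23158028) stood at 3593 CPM in low-ratio cells, 2699 in middle-ratio cells and 1344 in high-ratio cells. Lpl (ENSMUSG00000015568, chromosome 8, 68880491 to 68907448) stood at 3688, 2035 and 958 CPM. Ibsp (ENSMUSG00000029306, chromosome 5, 104299171 to 104311469) stood at 3849 CPM in low-ratio cells, 7615 in middle-ratio cells and 8978 in high-ratio cells. Spp1 (ENSMUSG00000029304, chromosome 5, 104435118 to 104441050) stood at 3708, 5975 and 8962 CPM. Low-ratio cells thus still carried much Ibsp and Spp1, with a UMI of Ibsp in 92.7% of them and of Spp1 in 94.9%.

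Counted cell by cell, the medians in low-ratio cells were 15 UMIs of Adipoq, 15 of Lpl, 15 of Ibsp and 13 of Spp1. In middle-ratio cells they were 11, 8, 31 and 22, and in high-ratio cells 5, 3, 36 and 34. The ranges overlapped widely: single low-ratio cells held up to 116 UMIs of Ibsp and 167 of Spp1, and single high-ratio cells up to 40 UMIs of Adipoq. The ratio at the border was 1.69, shared by 3 cells. The 50 cells just inside it held 3572 CPM of Adipoq and 6581 CPM of Ibsp, and the 50 just outside 2819 and 5642 CPM, while Lpl was at 3058 and 2785 CPM and Spp1 at 4506 and 4209 CPM.

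**Figure D1:**
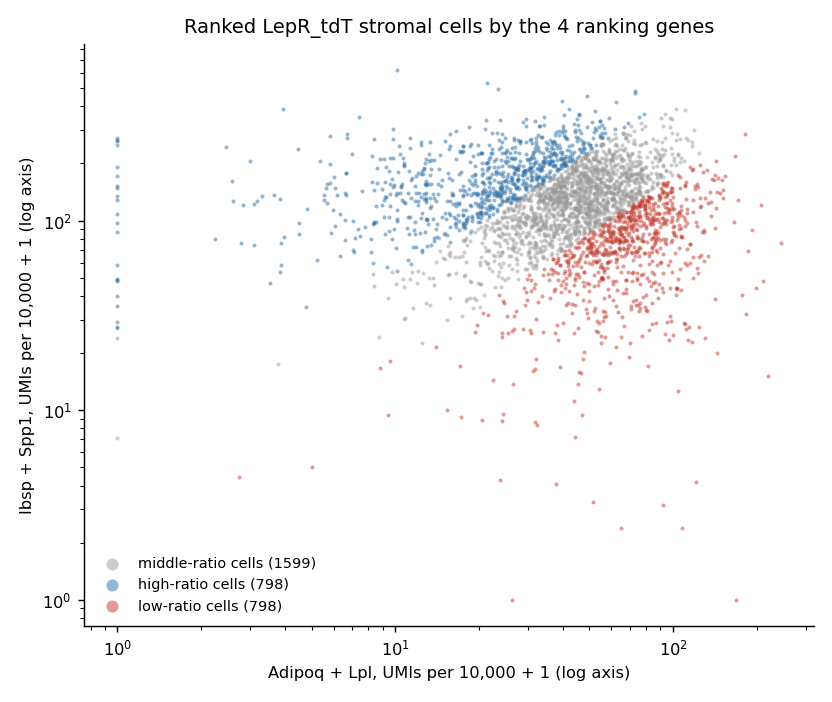
Each point is 1 of the 3195 ranked cells, placed by its Adipoq + Lpl UMIs (x axis) and Ibsp + Spp1 UMIs (y axis), both per 10000 UMIs of the cell plus 1 and on log axes, with low-ratio cells in red, middle-ratio cells in grey and high-ratio cells in blue. The cells form 1 cloud that the ratio divides along diagonals, without a gap at the border of the 798 low-ratio cells.

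The 2 pairs of genes split the low-ratio cells by how they came to have a low ratio. In 600 of the 798 (75.2%) Adipoq + Lpl lay above the median of all ranked cells, 43.2 per 10000 UMIs, and Ibsp + Spp1 below their median, 123 per 10000. Another 80 cells were above for Adipoq + Lpl without being below for Ibsp + Spp1, and kept 7885 CPM of Ibsp and 6763 CPM of Spp1. The remaining 118 (14.8%) were low for both sums, with 1487 CPM of Adipoq and 1781 CPM of Lpl, both under the levels of middle-ratio cells. These 118 cells are low-ratio without being rich in either fat-lineage gene.

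Promoters of Adipoq and Spp1, a gene from each side of the ratio, are shown since the ratio defines the cells. RefSeq gives 1 start for Adipoq and 2 for Spp1. Each window is the 250 bases before a start on the plus strand of GRCm38.p6, 5′ to 3′, chr16:23146286-23146535, chr5:104434861-104435110 and chr5:104435942-104436191, with capitals marking a motif match.
Adipoq: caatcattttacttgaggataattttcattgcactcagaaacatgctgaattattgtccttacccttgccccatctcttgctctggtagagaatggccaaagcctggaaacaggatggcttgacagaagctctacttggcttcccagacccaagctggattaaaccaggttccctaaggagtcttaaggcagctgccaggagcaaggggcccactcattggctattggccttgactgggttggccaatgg
Spp1, upstream start: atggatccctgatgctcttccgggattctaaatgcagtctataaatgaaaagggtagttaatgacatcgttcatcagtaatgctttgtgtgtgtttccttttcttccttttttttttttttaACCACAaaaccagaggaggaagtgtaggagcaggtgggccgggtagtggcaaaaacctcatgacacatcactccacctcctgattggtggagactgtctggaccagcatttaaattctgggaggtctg
Spp1, downstream start: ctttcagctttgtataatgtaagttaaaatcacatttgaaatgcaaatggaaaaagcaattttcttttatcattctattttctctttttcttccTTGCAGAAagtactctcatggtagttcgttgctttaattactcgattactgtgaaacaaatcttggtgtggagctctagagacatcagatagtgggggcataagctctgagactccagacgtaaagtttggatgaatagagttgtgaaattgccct
Motifs of 3 factor families were searched on both strands: TTGCNNAA for C/EBP and the palindromic EBF motif, both of families whose members act in fat cell formation, and TGTGGT for RUNX, whose member Runx2 drives bone formation. The upstream Spp1 window held 1 RUNX match, on the minus strand 128 bases before the start. The downstream Spp1 window held 1 C/EBP match, on the plus strand 156 bases before the start. The Adipoq window and that of Ibsp held none of the 3. Among all 32851 RefSeq promoter windows of this length, 9.56% held the C/EBP letters, 0.779% the EBF letters and 14% the RUNX letters. Of the 48 genes more than 1.5-fold higher in low-ratio cells, 32 had a RefSeq promoter, and 6 of these held the C/EBP letters, none the EBF letters and 4 the RUNX letters. That is 18.8% for C/EBP and 12.5% for RUNX, and by gene 10.8% of all 27025 genes held the C/EBP letters, 0.914% the EBF letters and 15.9% the RUNX letters. Of the 18 genes more than 1.5-fold lower, 14 had a promoter, of which 1 held the C/EBP letters, 1 the EBF letters and 2 the RUNX letters. These matches are letters in a window and describe no binding.

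The label of these cells, adipo-primed, was then checked by leaving each ranking gene out in turn. A gene left out of the ratio was not used to choose the cells, although the other 3 were. With Adipoq left out, the low-ratio cells held 2636 CPM of Adipoq and the middle-ratio cells 2658 (log2 ratio -0.01, 95% interval -0.05 to 0.02). With Lpl left out, Lpl stood at 2599 CPM in low-ratio cells and 2114 in middle-ratio cells (0.30, 0.26 to 0.33). The high-ratio cells of these rankings held 2415 CPM of Adipoq and 1921 of Lpl, and the ratios to them were 0.13 (0.09 to 0.17) and 0.44 (0.39 to 0.48). With Ibsp left out, Ibsp was higher, not lower, in low-ratio cells, at 7599 against 7065 CPM (0.11, 0.08 to 0.13). Spp1 was higher too, at 6758 against 5962 CPM (0.18, 0.16 to 0.20). Against the high-ratio cells, at 6242 CPM of Ibsp and 5827 of Spp1, both were again higher (0.28, 0.26 to 0.31, and 0.21, 0.19 to 0.24). Of the 4 left-out genes, Lpl lay on the side of the full ranking in both comparisons, Adipoq only against the high-ratio cells, and Ibsp and Spp1 in neither. Intervals of ratios here are conditional exact binomial intervals of the summed UMIs, and they cover counting error and no variation between mice or preparations.

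Ranking by 1 side of the ratio alone gave Ibsp another direction against middle-ratio cells. Chosen for Adipoq + Lpl alone, the lowest 25% held 6720 CPM of Ibsp against 7403 in the middle-ratio cells of that ranking (-0.14, -0.16 to -0.12) and 6407 in its high-ratio cells (0.07, 0.04 to 0.09). Ibsp was thus lower than in the middle and higher than at the other end. Spp1 was at 6028 CPM against 6015 (0.00, -0.02 to 0.03) and 6525 (-0.11, -0.14 to -0.09). Chosen for low Ibsp + Spp1 alone, it held 2452 CPM of Adipoq against 2553 (-0.06, -0.09 to -0.02) and 2801 (-0.19, -0.23 to -0.15), and 2523 CPM of Lpl against 2154 (0.23, 0.19 to 0.26) and 1938 (0.38, 0.34 to 0.42). Across the 3195 ranked cells, Spearman's rho between UMIs per 10000 was 0.11 for Adipoq and Lpl and -0.10 for Ibsp and Spp1. Across the 2 sides it was 0.17 for Adipoq and Ibsp, 0.00 for Adipoq and Spp1, -0.09 for Lpl and Ibsp and -0.01 for Lpl and Spp1. These cells share 1 library and the same free RNA, and correlations in sparse counts are a description only. With these directions mixed, the cells are named here by their ratio and not by a fate.

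Levels were also read on UMIs that had no part in the ranking. Each cell's UMIs were divided at random into 2 equal shares, the cells were ranked on 1 share, and the levels were read on the other. The low-ratio cells then differed from middle-ratio cells by 0.31 for Adipoq, 0.80 for Lpl, -0.89 for Ibsp and -0.64 for Spp1 on the log2 scale, against 0.41, 0.86, -0.98 and -0.69 in all UMIs. Both shares come from the same cells, so the direction of the ranking genes was largely set in advance. Their values describe the cells and support nothing about them. Of the 798 cells chosen on 1 share, 675 (84.6%) were low-ratio cells on all UMIs.

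**Figure D2:**
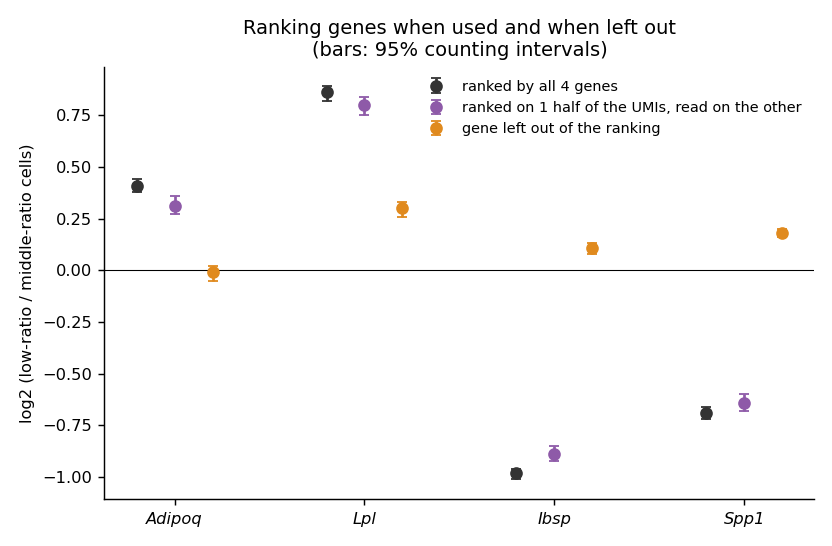
Log2 ratios of low-ratio to middle-ratio cells (y axis) for the 4 ranking genes, when all 4 rank the cells (black), when cells are ranked on 1 share of their UMIs and read on the other (purple), and when the gene is left out of the ranking (orange), with 95% counting intervals as bars. The left-out values lie at -0.01 for Adipoq, 0.30 for Lpl, 0.11 for Ibsp and 0.18 for Spp1, against 0.41, 0.86, -0.98 and -0.69 under the full ranking.

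Levels of most stromal marker genes were close along the ranking. Cxcl12, which the rule used as a minimum, stood at 36206 CPM in low-ratio cells, 36805 in middle-ratio cells and 34576 in high-ratio cells. Lepr (chromosome 4, 101717404 to 101815352) stood at 605, 678 and 670.2 CPM, slightly lower in low-ratio cells than in middle-ratio cells (-0.17, -0.24 to -0.09). Kitl was at 804, 818 and 771 CPM (-0.02, -0.09 to 0.04). The platelet-derived growth factor receptors Pdgfra (131, 132 and 118 CPM) and Pdgfrb (607, 630.2 and 565 CPM), and the transcription factors Foxc1 (269, 283 and 270.3 CPM) and Ebf3 (373, 391 and 378 CPM), which maintain these stromal cells, differed just as little. The stromal markers Gas6 (5500, 4923 and 4374 CPM), Grem1 (332, 275 and 260.4 CPM) and Chrdl1 (623, 618 and 508 CPM) were lowest in high-ratio cells. Their log2 ratios of low-ratio to high-ratio cells were 0.33, 0.35 and 0.30, under 1.5-fold. Endothelial cells of the EC library held 16.4 CPM of Lepr, 1.35 of Adipoq, 2.98 of Ibsp and 1.56 of Spp1. Lpl was at 143 CPM there. tdTomato was sparse, with UMIs in 59 of the 798 low-ratio cells (7.39%) and at 15.4 CPM against 21.1 in middle-ratio cells and 1.7 in the EC library.

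Defining genes of mature fat cells were at or near 0. Cidec, Lep and Retn, the lipid droplet protein and hormones of filled fat cells, had 0 UMIs in low-ratio cells, where the floor of 3 UMIs corresponds to 0.781 CPM. The droplet coat gene Plin1 had 4 UMIs. The set of 10 fat cell markers summed to 122 CPM in low-ratio cells, 86.4 in middle-ratio cells and 54.1 in high-ratio cells, with 3, 3 and 4 of its genes at 0. Nearly all of it was Fabp4, a fatty acid binding protein that marrow endothelium also makes, at 15033 CPM in the EC library.

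Few genes outside the rule differed between low-ratio cells and middle-ratio cells. With the 14 rule genes left out, 6142 genes reached 20 CPM in 1 of both groups, and of these 48 (0.782%) were at least 1.5-fold higher in low-ratio cells and 18 (0.293%) at least 1.5-fold lower. The median log2 ratio of all tested genes was 0.01. Against the high-ratio cells, with 6179 genes tested, 97 (1.57%) were higher and 78 (1.26%) lower. Among 1656 genes of at least 100 CPM, 7 (0.423%) were higher than in middle-ratio cells and 4 (0.242%) lower. Of those 7, 4 were haemoglobin genes, which are described with the markers of other cell types. The 2 comparisons share the low-ratio cells, and their values are given side by side.

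Id1 led the abundant genes that were higher. It encodes an inhibitor of helix-loop-helix transcription factors and is an early target of BMP signalling. Id1 (ENSMUSG00000042745, chromosome 2, 152736251 to 152737410) stood at 299 CPM in low-ratio cells, 149.9 in middle-ratio cells and 137 in high-ratio cells, which is a log2 ratio of 1.00 (0.88 to 1.12) to middle-ratio cells and 1.13 (0.98 to 1.29) to the high-ratio cells. With the ranking divided into 10 equal steps, it was at 397, 238 and 193 CPM in the lowest 3 and between 105 and 165 CPM in the other 7. A UMI of Id1 was found in 44.1% of low-ratio cells, 30.3% of middle-ratio cells and 27.8% of high-ratio cells. Thinned to 1000 UMIs per cell the first 2 shares were 18.9% and 12.4%. Id1 was also at 319 CPM in endothelial cells and at 385 CPM in the free RNA of the LepR_tdT library, the pool of droplets with 1 to 100 UMIs. When Ibsp had no part in the ranking the log2 ratio of Id1 to middle-ratio cells was 0.28.

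Il1rn, Timp4 and Itih5 followed Id1 among the abundant genes. Il1rn, which encodes the natural antagonist of interleukin 1, stood at 176 CPM in low-ratio cells, 115 in middle-ratio cells and 92.1 in high-ratio cells (0.62 and 0.94 on the log2 scale). Timp4, an inhibitor of matrix metalloproteinases, was at 100.5, 63.6 and 41.5 CPM (0.66 and 1.28). Itih5, which binds hyaluronan in the matrix, was at 253, 169 and 132 CPM (0.58 and 0.93) and just missed 1.5-fold against middle-ratio cells. Spon1, a matrix protein, stood at 118, 80.6 and 88.1 CPM, and Col8a1, a short-chain collagen, at 368, 272 and 330.0 CPM. Their ratios to middle-ratio cells were 0.55 and 0.44, under 1.5-fold. Idh1, which makes cytosolic NADPH, was at 139, 100.2 and 92.3 CPM, and Scp2, a sterol carrier of peroxisomes, at 550.0, 409.9 and 360.3 CPM. Both were under 1.5-fold against middle-ratio cells (0.47 and 0.42) and past it against the high-ratio cells (0.59 and 0.61). Lfng, which modifies Notch receptors, Pycard, the adaptor of inflammasomes, and Pdzrn4 completed the 12 highest abundant genes together with Fabp4, at ratios of 0.44 to 0.51.

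Angptl1, Wisp2, Ddit4 and S100b had the lowest ratios of the abundant genes. Angptl1 (ENSMUSG00000033544, chromosome 1, 156838562 to 156861078), a secreted protein related to angiopoietins, stood at 44.5 CPM in low-ratio cells, 102 in middle-ratio cells and 119.6 in high-ratio cells (-1.19, -1.44 to -0.95, against middle-ratio cells). Wisp2 (ENSMUSG00000027656, chromosome 2, 163820861 to 163833146), a secreted protein of the CCN family, was at 413, 746 and 845 CPM (-0.85, -0.94 to -0.77). Ddit4, an inhibitor of the growth kinase mTORC1, was at 199, 353 and 372 CPM (-0.83), and S100b, a calcium-binding protein, at 134, 215 and 283 CPM (-0.69). These 4 are the abundant genes that were past 1.5-fold lower, and all 4 were also past it against the high-ratio cells.

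Igfbp5, an insulin-like growth factor binding protein stored in bone matrix, was at 2373, 3489 and 3274 CPM (-0.56 against middle-ratio cells), and Mgp, an inhibitor of calcification, at 2560, 3467 and 4361 CPM (-0.44). Klf2, a transcription factor that responds to flow and digestion, was at 593, 791 and 961 CPM (-0.42). Map1b, Rmnd1, Htra1, Dapk2 and Apod made up the rest of the 12 lowest abundant genes, at -0.53 to -0.43. Wisp2 climbed from 291 CPM in the lowest of the 10 steps to 933 in step 9, and Angptl1 from 37.4 CPM in the lowest to 129.9 in step 8.

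**Figure D3:**
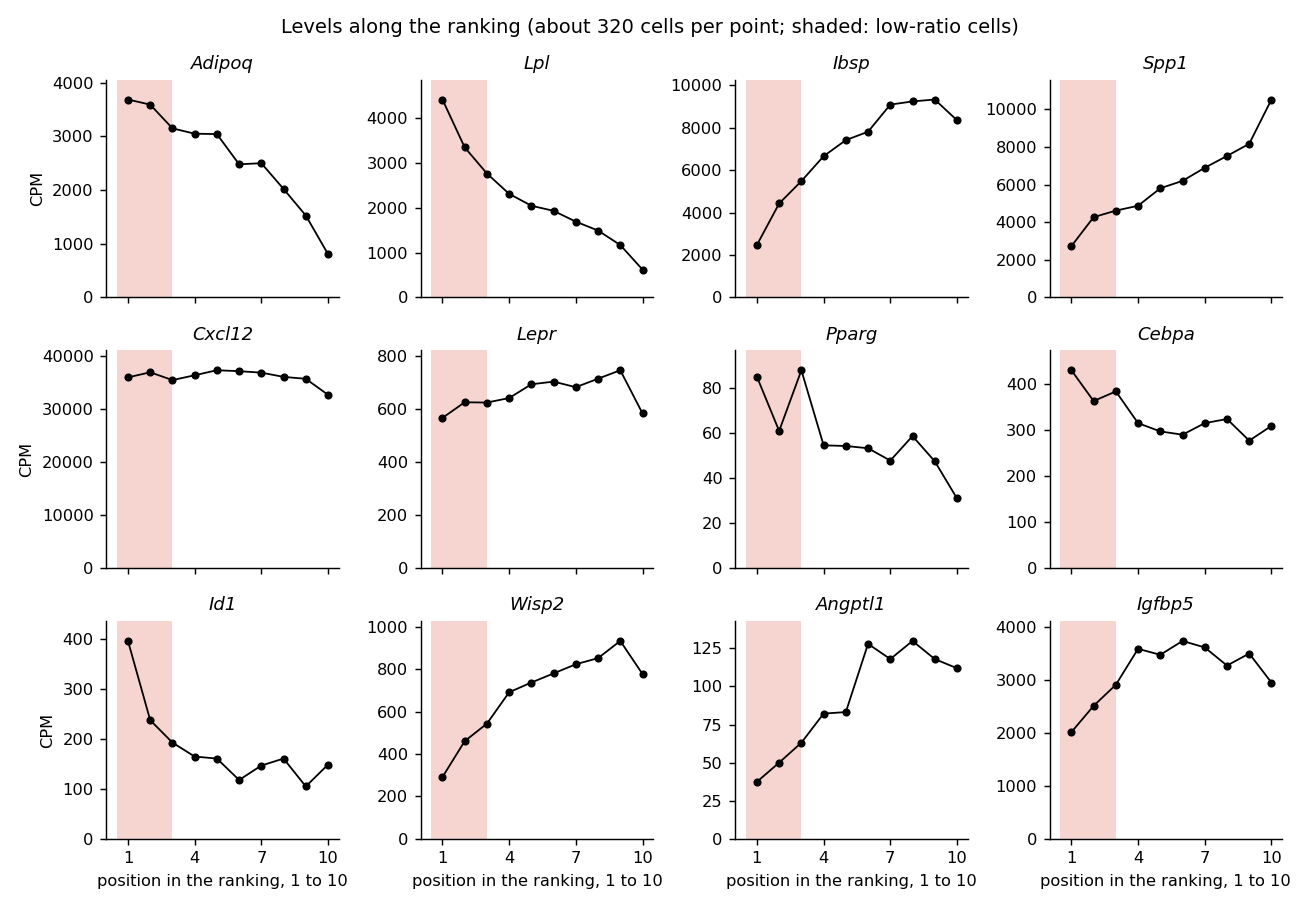
Levels in CPM (y axes, from 0) of 12 genes in 10 equal steps of the ranking (x axis, step 1 has the lowest ratio; about 320 cells per point; the shaded band marks the low-ratio cells). The 4 ranking genes and Wisp2 are graded along most of the ranking. Angptl1 climbs until step 6, Id1 is highest in the lowest 3 steps, and Cxcl12 stays between 32736 and 37379 CPM.

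The ratios of the genes named next moved most when Ibsp was the ranking gene left out. Ranked without Ibsp, the log2 ratio to middle-ratio cells was -0.01 for Wisp2, -0.18 for Angptl1, 0.30 for Ddit4, 0.08 for Igfbp5, 0.26 for Timp4 and -0.15 for Itih5. Ranked without Spp1 these genes were further from 0 than in the full ranking, with Wisp2 at -1.20, Ddit4 at -1.15 and Itih5 at 0.94, except Angptl1, which was equal at -1.19. Without Ibsp, 10 genes lay past 1.5-fold higher and 17 lower, of which 5 and 0 were among the 48 and 18. The low-ratio cells chosen without Ibsp shared 460 cells (57.6%) with those of the full ratio.

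**Figure D4:**
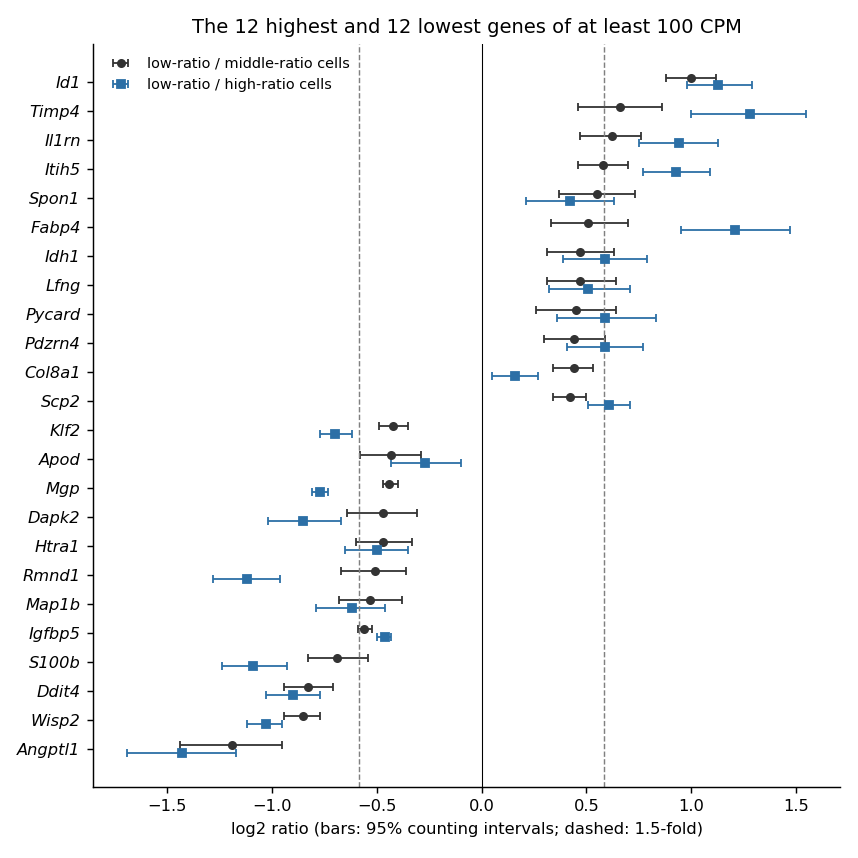
Log2 ratios (x axis) of low-ratio cells to middle-ratio cells (black circles) and to high-ratio cells (blue squares) for the 12 highest and 12 lowest genes of at least 100 CPM outside the rule, with 95% counting intervals as bars and dashed lines at 1.5-fold. Against middle-ratio cells 4 genes lie beyond the lower line and 3 of the 12 shown beyond the upper one.

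Transcription factors of the fat lineage differed by less than 1.5-fold. Of the 10 measured of 17 listed, 0 were past 1.5-fold against middle-ratio cells in either direction, with a median log2 ratio of 0.05 and a range from -0.07 to 0.41. Pparg, the nuclear receptor that drives fat cell formation (ENSMUSG00000000440, chromosome 6, 115360951 to 115490399), had the highest ratio. It stood at 76.8 CPM in low-ratio cells, 57.9 in middle-ratio cells and 40.1 in high-ratio cells (0.41, 0.19 to 0.62, against middle-ratio cells and 0.94, 0.65 to 1.23, against the high-ratio cells). A UMI of Pparg was found in 29.3%, 21.1% and 16.4% of cells, or 8.52%, 5.19% and 4.51% after thinning. Its partner Cebpa was at 393, 317 and 295 CPM (0.31, 0.21 to 0.40). Cebpb, which acts before them, was at 1231, 1279 and 1437 CPM (-0.06), and Ebf1, an early B cell factor that stromal cells also use, at 845, 848 and 824 CPM (0.00). Against the high-ratio cells, Pparg was the 1 of 10 past 1.5-fold.

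Genes that serve lipoprotein lipase and fatty acid transport had 1 member past 1.5-fold among 10 measured, with a median of 0.14. That gene, the fatty acid binding protein Fabp5, stood at 28.4 CPM in low-ratio cells, 15.2 in middle-ratio cells and 9.64 in high-ratio cells (0.90, 0.51 to 1.29). Free RNA held 236 CPM of it. Fabp4 was at 109, 76.7 and 47.4 CPM (0.51 and 1.21), but 8 cells held 36.7% of its UMIs in low-ratio cells and 46.4% in middle-ratio cells, and free RNA held 4250 CPM. Apoe, the apolipoprotein of lipid transport, was at 9349, 8313 and 7236 CPM (0.17 and 0.37). Angptl4, a secreted inhibitor of lipoprotein lipase, was at 476, 412 and 393 CPM (0.21 and 0.28). Lmf1 and Sel1l, which help the lipase to fold and leave the endoplasmic reticulum, were at 26.8 against 29.3 CPM and 71.1 against 72.7 CPM in middle-ratio cells.

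Fat hormones and lipid synthesis showed small ratios too. Among 10 measured genes of secreted fat products, Rbp4, the carrier of retinol, was the 1 past 1.5-fold, at 24.5 CPM against 12.8 in middle-ratio cells and 16.9 in high-ratio cells (0.93, 0.51 to 1.36), and the list's median was 0.12. None of 11 measured lipid synthesis and droplet genes was past it, with a median of 0.13. The desaturase gene Scd1 stood at 34.6, 23.6 and 16.3 CPM (0.55 and 1.08), but without the 1 cell richest in it the first ratio was 0.32. The droplet gene Plin2 was at 77, 57.4 and 56.5 CPM (0.43). The chaperones that fold adiponectin and other secreted proteins had 0 of 13 past 1.5-fold and a median of 0.00. Named after their values were seen, Aqp7, the glycerol channel of fat cells, stood at 30.7, 17.7 and 9.64 CPM (0.79 and 1.67), and Abcd2, a fatty acid transporter of peroxisomes, at 26.8, 16.3 and 14.2 CPM (0.72 and 0.92).

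Receptors and relays of leptin and adiponectin had 0 of 8 measured genes past 1.5-fold and a median of 0.07. The adiponectin receptors Adipor1 (104, 85.9 and 76.3 CPM) and Adipor2 (43.2, 33.1 and 31.6 CPM) had ratios of 0.27 and 0.39 to middle-ratio cells. Stat3, which carries the leptin signal, was at 165, 188 and 197 CPM (-0.20), Jak2 at 16.9, 21.1 and 21.1 CPM (-0.32), and Socs3, its feedback inhibitor, at 532, 520.2 and 549 CPM (0.03). In the insulin and IGF list, 1 of 14 was past 1.5-fold: Irs2, which links the insulin receptor to its kinases, at 22.6 CPM against 14.5 in both other groups (0.64, 0.22 to 1.06, against middle-ratio cells).

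Bone genes beyond those of the rule were at the level of middle-ratio cells. Of 20 measured osteogenic and bone matrix genes outside the rule, 0 were past 1.5-fold against middle-ratio cells, with a median of 0.03. Against the high-ratio cells 5 of 20 were past it, all lower, beside 1.26% lower among all 6179 tested genes. The median of the 20 was -0.20. Named after their values were seen, 3 of the 5 were Alpl, the alkaline phosphatase of mineralising cells, at 56 CPM in low-ratio cells, 50.3 in middle-ratio cells and 104 in high-ratio cells, Wif1, a Wnt inhibitor, at 231, 271 and 536 CPM, and Limch1 at 201, 183 and 342 CPM. Low-ratio cells and middle-ratio cells were close in these genes, and it was the high-ratio cells that stood apart. Vdr, the vitamin D receptor, also among the 5, was at 44.8, 58.2 and 89.4 CPM (-0.38 against middle-ratio cells). Sp7, which commits cells to the bone lineage, was at 38.5, 38.9 and 49.5 CPM, and Sparc, a collagen-binding protein of bone, at 3703, 3111 and 3256 CPM (0.25 against middle-ratio cells).

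Niche factors, the secreted and surface proteins that support blood cells, had 0 of 21 measured genes past 1.5-fold against middle-ratio cells and a median of 0.05. Next to Kitl, Vcam1, which holds blood cells in place, was at 2195, 1939 and 1746 CPM (0.18), Csf1, the macrophage growth factor, at 469, 442 and 432 CPM (0.08), Il7, which B cell precursors need, at 101, 90.4 and 84.9 CPM (0.16), and Angpt1 at 119, 112 and 81.6 CPM (0.08). Vegfa, the main vessel growth factor, had the lowest ratio of the list at 53.9, 75.8 and 85.9 CPM (-0.49, -0.73 to -0.26), while its relative Vegfc was at 365, 312 and 281 CPM (0.22). Bmp4 was at 347, 299 and 229 CPM (0.22 and 0.60), past 1.5-fold against the high-ratio cells only. Among 15 BMP and Wnt modulators 0 were past 1.5-fold against middle-ratio cells, with a median of 0.11. That list also held Gpx3, a secreted glutathione peroxidase (5462 against 6390 CPM, -0.23), without which the median of the other 14 was 0.12. The BMP and activin antagonists Grem1 and Fst stood at 332 against 275 CPM and 684 against 551 CPM.

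Chemokines gave the largest single ratio outside the rule. Cxcl13 (ENSMUSG00000023078, chromosome 5, 95956951 to 95961068), which attracts B cells, had 284 UMIs in low-ratio cells and 60 in middle-ratio cells, or 73.9 against 8 CPM, and 8.03 CPM in high-ratio cells. Its log2 ratio to middle-ratio cells was 3.21 (2.80 to 3.63). The gene was found in few cells: 49 low-ratio cells (6.14%), 28 of middle-ratio cells (1.75%) and 12 high-ratio cells (1.5%) had a UMI, and 3.51%, 0.75% and 0.251% after thinning to 1000 UMIs. In low-ratio cells 8 cells held 50.7% of the UMIs, and without the richest cell the ratio was 3.08. The EC library had 0 UMIs of Cxcl13 in its 4536 cells, where the floor of 3 UMIs corresponds to 0.213 CPM, and the free RNA of the LepR_tdT library held 20.6 CPM. Along the 10 steps of the ranking Cxcl13 was at 124, 46.1 and 22.3 CPM in the lowest 3 and at most 10.8 CPM in the others. When the ranking used Adipoq and Lpl alone the ratio was 0.87, and 2.88 when it used Ibsp and Spp1 alone. The ratio of Cxcl13 was thus larger in cells chosen for low Ibsp and Spp1 than in cells chosen for high Adipoq and Lpl.

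Ccl7, which attracts monocytes, and Cxcl10, an interferon-induced chemokine, were the other 2 of 10 measured chemokine genes past 1.5-fold. Over all tested genes 0.782% were past it higher, and the list's median was 0.25. Ccl7 was at 76.8, 45.9 and 58.9 CPM with 47.5% of its UMIs in 8 low-ratio cells, and its ratio of 0.74 was -0.09 when the ranking left out Lpl. Cxcl10 was at 65.6, 43.1 and 23 CPM, but 57.1% of its UMIs in low-ratio cells lay in 1 cell. Without that cell its ratio of 0.61 was -0.61. All middle-ratio cells were kept in that ratio, and 8 of them held 72.4% of their Cxcl10 UMIs. Of 18 interferon response genes 1 was past 1.5-fold higher and 1 lower. Ifit1, an antiviral protein, stood at 73.9, 38.5 and 42.8 CPM (0.94, or 0.57 without 1 cell), and Ifitm1, which blocks virus entry, at 24.7, 46.1 and 38.8 CPM (-0.90).

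The middle 50% of all tested genes had log2 ratios to middle-ratio cells from -0.08 to 0.11, and the medians of the matrix, energy and stress lists lay within it. None of 30 interstitial matrix genes (median 0.04), 31 nuclear genes of oxidative phosphorylation (0.01), 14 glucocorticoid response genes (-0.04), 25 immediate early genes (0.03), 12 heat shock genes (0.08), 12 antigen presentation genes (-0.04), 11 complement and kinin genes (0.02) or 6 proliferation genes (0.04) was past 1.5-fold against middle-ratio cells. The median of the 11 basement membrane genes, 0.18, lay above that range. So did the medians of the lists of lipoprotein lipase handling (0.14), secreted fat products (0.12) and lipid synthesis (0.13), and of chemokines (0.25) and interferon response (0.13). Among the basement membrane genes Agrn, agrin, was past 1.5-fold at 21.6 against 12.5 CPM, and its ratio of 0.79 was -0.03 when the ranking left out Spp1. Among 24 iron and antioxidant genes (0.07) Sod3, the secreted superoxide dismutase, was past it at 35.1, 17.7 and 16.6 CPM (0.99, 0.63 to 1.34). Among 23 stromal transcription factors (-0.03) it was Id1.

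**Figure D5:**
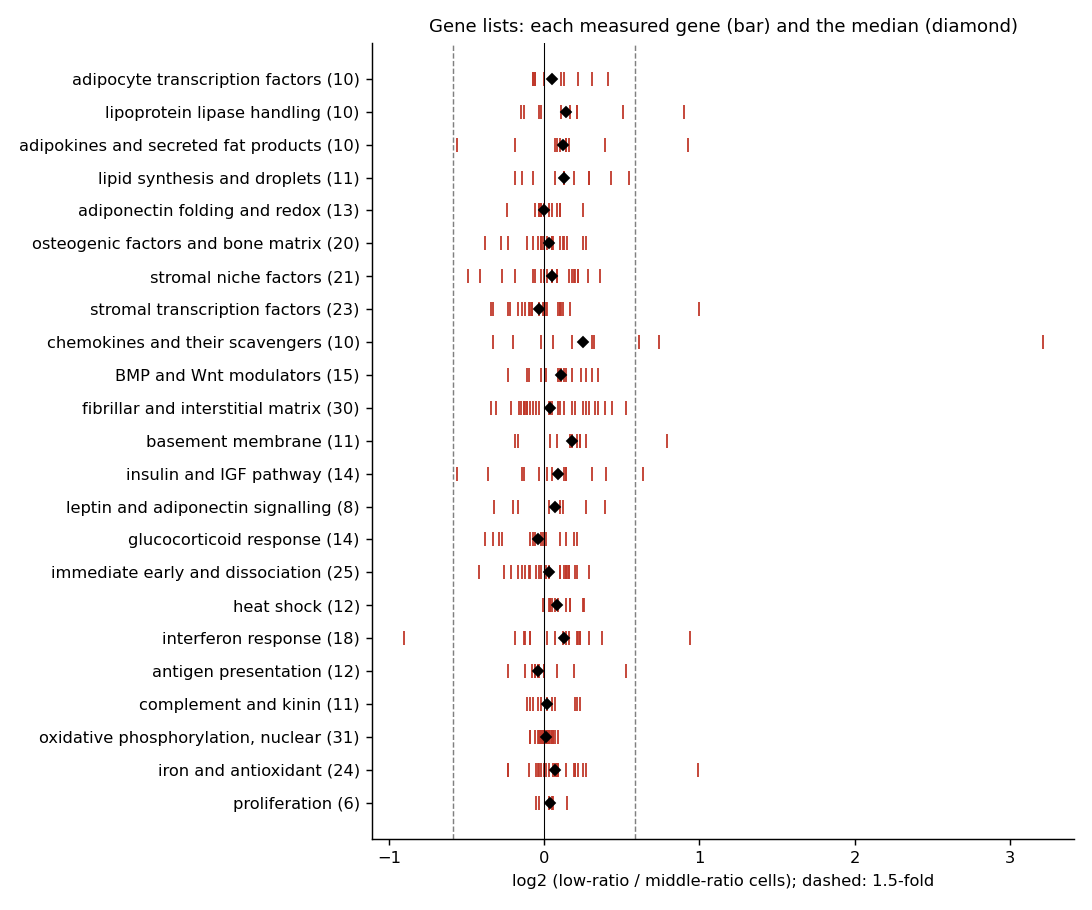
Each bar is 1 measured gene of a list (number of genes in brackets), placed by its log2 ratio of low-ratio to middle-ratio cells (x axis), with the list's median as a diamond and dashed lines at 1.5-fold. The medians of the 23 lists lie between -0.04 and 0.25, and most genes lie between the dashed lines, with Cxcl13 at 3.21 far to the right.

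Within the low-ratio cells Adipoq and Lpl were not evenly shared. In 215 cells (26.9%) the UMI count of Adipoq was at least 2 times that of Lpl, in 229 (28.7%) that of Lpl was at least 2 times that of Adipoq, and in 354 (44.4%) they lay within 2-fold. Spearman's rho between the 2 genes was -0.20 over the 798 cells, which share a library and were chosen by the sum of both genes. Cells rich in Adipoq held 3150 CPM of Igfbp5, cells rich in Lpl 1387 and the others 2475. Wisp2 was at 492, 339 and 408 CPM and Id1 at 369, 234 and 296 CPM in the same order, and Pparg at 68.5, 88.6 and 75 CPM. Cxcl12 was alike at 36916, 34736 and 36617 CPM. The Lpl-rich cells thus had the lowest Igfbp5 of the 3 and the Adipoq-rich cells the highest.

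The rule had set aside 178 cells for their Kit, Cxcl5, Hsd11b1 and Mrap UMIs. Of the 48 genes past 1.5-fold higher in low-ratio cells, 25 were higher still in those 178 cells. Another 22, the haemoglobin genes among them, were lower than in low-ratio cells, with Agrn equal at 21.6 CPM. Of the 18 genes past 1.5-fold lower, 8 were above low-ratio cells there and 10 below. Set against middle-ratio cells, 37 of the 48 were above in the set-aside cells and 10 below. Of the 18, 1 was above middle-ratio cells there and 17 below. The share over all tested genes was not computed, so these counts show nothing particular to the called genes. The set-aside cells held 3834 CPM of Adipoq and 4274 of Lpl, and outside the rule genes 126 CPM of Pparg, 525 of Cebpa, 591 of Fabp4, 116 of Fabp5, 224 of Scd1, 234 of Plin2, 758 of Angptl4, 711 of Itih5, 353 of Il1rn and 249.8 of Timp4. Each of these levels was above that of low-ratio cells. Below it were Cxcl13 at 21.6 CPM, Sox9 at 9.51 and, under 1.5-fold in low-ratio cells, Col8a1 at 219.6 CPM. The set-aside cells were deeper, with a median of 6316 UMIs. Angptl1, at 6.92 CPM in the set-aside cells, and Wisp2, at 87.3 CPM there, were below the levels of low-ratio cells. Spp1 went the other way, at 8197 CPM against 3708, while Ibsp was lower, at 1630 CPM against 3849. Low-ratio cells themselves had 27.1 CPM of Kit, 53.6 of Hsd11b1 and 49.7 of Mrap, against 15.2, 35.6 and 34.7 in middle-ratio cells, under a maximum that the rule set for both.

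Markers of other cell types moved with the low ratio in a few cells. Of the erythroid set all 8 genes were detected and the sum was 1314 CPM in low-ratio cells, 321 in middle-ratio cells and 174 in high-ratio cells. A single low-ratio cell held 4308 of the 5049 erythroid UMIs, and without it the sum was 194 CPM. The haemoglobin genes Hba-a1, Hba-a2, Hbb-bs and Hbb-bt, near-identical copies in part, were 4 of the 48 genes past 1.5-fold. Without that cell Hba-a1 was at a ratio of -0.64, and 45 genes were past 1.5-fold higher and 21 lower. All middle-ratio cells were kept in that ratio, and 8 of them held 57.5% of their Hba-a1 UMIs. Chondrocyte markers summed to 73.7, 34.7 and 72 CPM, with Acan and Col10a1 at 0 in all 3 groups. Sox9, a cartilage factor, was at 23.2 CPM against 10.4 in middle-ratio cells (1.16), and Comp at 48.7 against 22.3 (1.13), with 67.4% of its UMIs in 8 cells. Pericyte and smooth muscle markers summed to 66.6, 60.8 and 53.3 CPM, endothelial markers to 23.4, 32.9 and 28.9, granulocyte markers to 70.5, 54.7 and 67.7, and macrophage markers to 20.0, 18.4 and 15. The endothelial genes Stab2 and Tek had 0 UMIs in low-ratio cells. Fibroblast markers summed to 23.4, 13.3 and 18.7 CPM, megakaryocyte markers to 38, 36.5 and 40.4, T cell markers to 0.781, 0.534 and 0, and general blood cell markers to 110.4, 108 and 121. Most of the general blood cell sum was Fcer1g, at 98.9, 93.6 and 105 CPM. B cell markers summed to 847, 853 and 826 CPM, nearly all of it Ebf1, which these stromal cells make themselves. Schwann cell markers, of which S100b and Ncam1 gave most UMIs, summed to 214, 295 and 436 CPM, with Sox10 at 0 in all 3 groups. Leaving out cells with 5 or more UMIs of blood or endothelial markers gave 50 genes past 1.5-fold higher and 15 lower.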

How the data were processed

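Droplet single-cell RNA was measured in 2 libraries, LepR_tdT and EC. The authors deposited raw UMI counts for 27999 genes and all barcodes in 1 matrix, with a table naming the library, UMI count and gene count of each cell. Recomputed numbers matched that table for all 4250 LepR_tdT and 4536 EC cells. Cell Ranger 2.1.1, Seurat 2.3.4 and mm10 are named per the submitters' processing notes, without roles. The LepR_tdT library counted 21983361 UMIs, 82.5% of them in cells, with a median of 4347 per cell, and the EC library 18152304, 77.7% in cells, with a median of 3084.5.

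The cells were ranked by the rule given above, and UMIs of each group of cells were summed and divided by the group's total (CPM). Members, lists and comparisons were chosen with earlier results of these data known. With 1 library per group no test, p-value or standard error was drawn from cells. Ratios carry conditional exact binomial 95% intervals, for counting error only. A gene was called at 1.5-fold or more with at least 20 CPM in the higher group. Named genes were those of the rule, the 12 highest and 12 lowest ratios among genes of at least 100 CPM (mitochondrial, ribosomal protein, haemoglobin and predicted genes left out), up to 4 extreme genes per list for 23 lists, all measured genes of the fat transcription factor, lipase, leptin and adiponectin, and niche lists, and the leading genes of each cell type marker set. Scrublet called 1 of 4250 cells a doublet (0.0235%), so the caller did not work here and doublets were not removed. The ratio and its interval were tested on simulated counts with known folds. Those counts were drawn with counting error alone, so the simulation could not show how the interval fares under spread between cells. Positions are from GENCODE M21 on GRCm38, which held 27645 of the 27999 identifiers, and promoters are from RefSeq on GRCm38.p6. Tables were handled in pandas 2.3.3, intervals computed in scipy 1.17.1, doublets called through scanpy 1.11.5 and figures drawn in matplotlib 3.10.9, all under Python 3.11.15.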

Additional observations from a re-analysis of the deposited data

How the results depend on the processing

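Against 48 genes past 1.5-fold higher and 18 lower in low-ratio cells than in middle-ratio cells, the counts moved most under the following settings. Thinning every cell to 1000 UMIs gave 347 and 255, ranking on 1 random share of the UMIs and reading the other 89 and 70, no minimum level beyond 20 UMIs 397 and 386, and taking the lowest 10% as members 136 and 79. Thinning, the split and the lowest 10% also changed the cells chosen and left fewer UMIs in the low-ratio group. At 20 CPM a gene then rested on fewer UMIs. The part of counting error in these counts was not tested. Without the minimum 11329 genes were tested in place of 6142. Of the 48 and 18, 19 and 8 were shared after thinning and 27 and 9 with the split. Genes of at least 100 CPM gave 7 and 4, and a fold of 2 gave 8 and 1. Ranking without Lpl gave 26 and 8 (18 of the 48 and 3 of the 18 shared). Adipoq and Lpl alone gave 28 and 15 (13 of the 48 and 0 of the 18 shared). Of 2 settings chosen after seeing the data, ranking without Ibsp gave 10 and 17, and ranking without Spp1 gave 67 and 45. Free RNA subtracted at the share set by haemoglobin gave 108 and 134. That share, 29.9% in low-ratio cells and 7.25% in middle-ratio cells, was the haemoglobin level of each group over that of free RNA, and 1 low-ratio cell held 4308 of the 5049 erythroid UMIs. Set by S100a8 and S100a9, chosen after seeing the data, it was 0.714% and 0.562%, with 49 and 18 genes. Depth-weighted reference, UMI minimum, mitochondrial maximum, 3 scalings and the other settings kept both counts within 1.5 times. A count that was kept did not always mean the same genes. Ranking without Adipoq gave 36 and 25, of which 18 and 8 were among the 48 and 18. Ranking by Ibsp and Spp1 alone gave 36 and 12, of which 15 and 5 were.

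Of the values of named genes under all settings, 3707 lay inside the counting interval of the main ratio, 681 lay outside it and 27 changed direction. Direction was counted only for genes called past 1.5-fold. A change of direction in any other gene, such as Itih5 or Igfbp5 without Ibsp, is among the 3707 or the 681. Of list medians, 429 stayed and 98 moved. Both tallies pool settings that could move little with rankings that changed the cells. Ranking in UMIs per 10000 kept 99.6% of the low-ratio cells, and ranking without Ibsp 57.6%. The 3707 and the 429 thus say little about the changed rankings alone. The log2 ratio of Agrn turned to -0.03 without Spp1, of Ccl7 to -0.09 without Lpl, of Cxcl10 to -0.12 after thinning and of Ddit4 to 0.30 without Ibsp. For Hba-a1, Hba-a2 and Hbb-bs it turned to -1.16, -1.65 and -1.21 after thinning, -2.33, -2.64 and -2.32 with the UMIs split, -0.82, -0.93 and -0.95 for the lowest 10%, -2.02, -2.52 and -2.09 without Adipoq, -2.29, -2.86 and -2.05 by Adipoq and Lpl alone, -1.95, -2.06 and -1.64 without Ibsp, and -0.64, -0.86 and -0.82 without the richest cell. With cells carrying other cell type UMIs left out, Hba-a1 was at -0.04 and Hbb-bs at -0.18. The cause of the changes in Agrn, Ccl7, Cxcl10 and Ddit4 was not tested. No paired analysis was possible because the groups compared are cells of 1 library, with no replicate number to pair.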
